A study of Mus musculus with 6 samples.

Results

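The 10 genes described here move cholesterol through and out of macrophages or sense it through the liver X receptors (LXR), and were followed in 6 RNA-seq libraries of mouse cells. They are Abca1, Abcg1, Nr1h2, Nr1h3, Mylip, Npc1, Npc2, Lipa, Apoe and Soat1, chosen by symbol. All 10 were in the deposited table of 15469 protein-coding genes and among the 11424 with enough counts to test. The cells were peritoneal macrophages of CAIA mice (the labels do not spell the abbreviation out), sorted on surface RELM-α and then put in culture. The 3 libraries labelled KO came from PU.1-deleted macrophages and the 3 labelled WT from control macrophages, and the stated question was the part of PU.1 in ferroptosis of these cells. All 6 libraries shared the mouse model, the sort and the culture. The labels leave out the allele, the means of deletion, and the strain, age and sex of the mice. They do not say whether replicates are different mice or cultures, and the p-values cover the spread between these samples alone, which may be technical.

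Macrophages take up lipoproteins and dead cells and cannot break down the sterol ring, so excess cholesterol has to be stored as an ester or exported. Cholesteryl ester is cut in the lysosome, the freed cholesterol leaves through the NPC1 and NPC2 proteins, and oxysterols made from it bind LXRα (Nr1h3) and LXRβ (Nr1h2). These nuclear receptors pair with RXR on a direct repeat of half-sites in DNA and switch on the exporters Abca1 and Abcg1, the acceptor protein gene Apoe and Mylip, which limits further uptake. PU.1, the product of Spi1, binds macrophage enhancers, and many sites where LXR binds in macrophages lie beside it.

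Of the 10 genes, 8 had upstream sequence in the RefSeq promoter table (GRCm38.p6); Abcg1 and Npc1 are named only. The 250 bases before the start in that table of Abca1 and of Mylip are shown because both genes are LXR targets and in both KO replicates 2 and 3 lay below the other 4 libraries. Capitals mark motif matches: in Abca1 (chr4:53159896-53160145, minus strand) an E-box, CACGTG, that begins 147 bases before the start, and an LXR-type direct repeat that begins 67 bases before it and lies on the opposite strand. The RefSeq start used for Abca1 (53159895) lies inside the range the deposited table gives the gene, so 93 bases of the window, the repeat among them, are within that range. In Mylip (chr13:45389492-45389741, plus strand) no searched motif was present.
Abca1: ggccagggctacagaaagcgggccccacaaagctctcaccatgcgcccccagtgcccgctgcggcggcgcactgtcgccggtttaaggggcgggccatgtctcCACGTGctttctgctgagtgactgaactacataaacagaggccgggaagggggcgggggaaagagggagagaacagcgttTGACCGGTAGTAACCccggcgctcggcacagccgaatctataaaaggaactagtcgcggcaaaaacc
Mylip: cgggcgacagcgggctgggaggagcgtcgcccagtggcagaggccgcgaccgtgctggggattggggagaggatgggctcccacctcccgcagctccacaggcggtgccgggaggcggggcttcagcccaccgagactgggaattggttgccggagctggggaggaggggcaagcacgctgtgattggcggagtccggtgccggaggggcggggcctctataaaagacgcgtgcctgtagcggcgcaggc

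Both strands of 32851 such windows were searched. The direct repeat, spelled GGTNA, then 5 bases of any kind, then GGTCA, occurred in 0.177% of all windows and in 1 of the 11 windows of the 8 genes, some with several starts, that of Abca1. The E-box occurred in 6.02% of all windows and again in 1 of the 11. A PU.1 core, spelled GAGGAAGT, was in 2.44% of all windows, and a sterol element, spelled TCACNCCAC, in 1.05%; neither was in any of the 11. No motif overlapped another in the Abca1 window. A match is a run of letters only, and no match says nothing of sites elsewhere.

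The libraries held 17280855 to 18632623 estimated counts. Spi1, the targeted gene, did not pass the test: it averaged 294 ± 22.6 CPM in KO and 315.8 ± 29 CPM in WT libraries (SD, n = 3 each; CPM is the count scaled to the effective size of its library), a log2 difference of -0.10 (edgeR adjusted p = 0.561). The labels do not say which part of the gene was deleted, so its counts do not show the deletion, and KO and WT below mean the libraries so labelled. The 4 tested genes of the Y chromosome had 0 to 7 counts over the KO libraries and 1172 to 3019 over the WT libraries, and this difference and the label cannot be told apart. KO replicate 1 stood apart: its log2 CPM across genes correlated at 0.902 and 0.922 with KO replicates 2 and 3, which correlated at 0.99 with each other, and at 0.955 to 0.959 with the WT libraries. The results on the 10 genes are therefore also given without it. Such correlations run across genes, which are no replicates, and are a description.

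Levels between genes were compared per transcript length, in TPM, where Apoe stood first and Nr1h3 last by WT mean. Apoe averaged 16024 ± 5541 TPM in KO and 23772 ± 3061 TPM in WT libraries, and ranked 4th to 7th of all genes in each library. Lipa followed at 1759 ± 105 TPM in KO and 1845 ± 271 TPM in WT libraries. Npc2 came next, at 916.5 ± 129 TPM in KO and 818.1 ± 19.1 TPM in WT libraries, then Soat1 at 249.4 ± 22.8 TPM in KO and 297.1 ± 41.2 TPM in WT libraries (SD, n = 3 each). These first places held in all 6 libraries. The next levels could not be ordered beyond their spread: Npc1 (153.6 ± 25.9 TPM in KO, 148.3 ± 25.1 in WT) lay above Abcg1 (98.7 ± 20.2 in KO, 148.3 ± 18.8 in WT) in 4 of 6 libraries, and Nr1h2 (85.4 ± 6.7 in KO, 77.6 ± 3.95 in WT) above Mylip (50.4 ± 40.1 in KO, 74.6 ± 9.95 in WT) in 3. Abca1 (17.9 ± 15.7 in KO, 38.3 ± 13.3 in WT) lay above Nr1h3 (28.1 ± 15.1 in KO, 36.7 ± 4.14 in WT) in 2. A single gene, Apoe, took 0.6% to 1.35% of all counts in the KO libraries and 1.26% to 1.8% in the WT libraries.

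**Figure D1:**
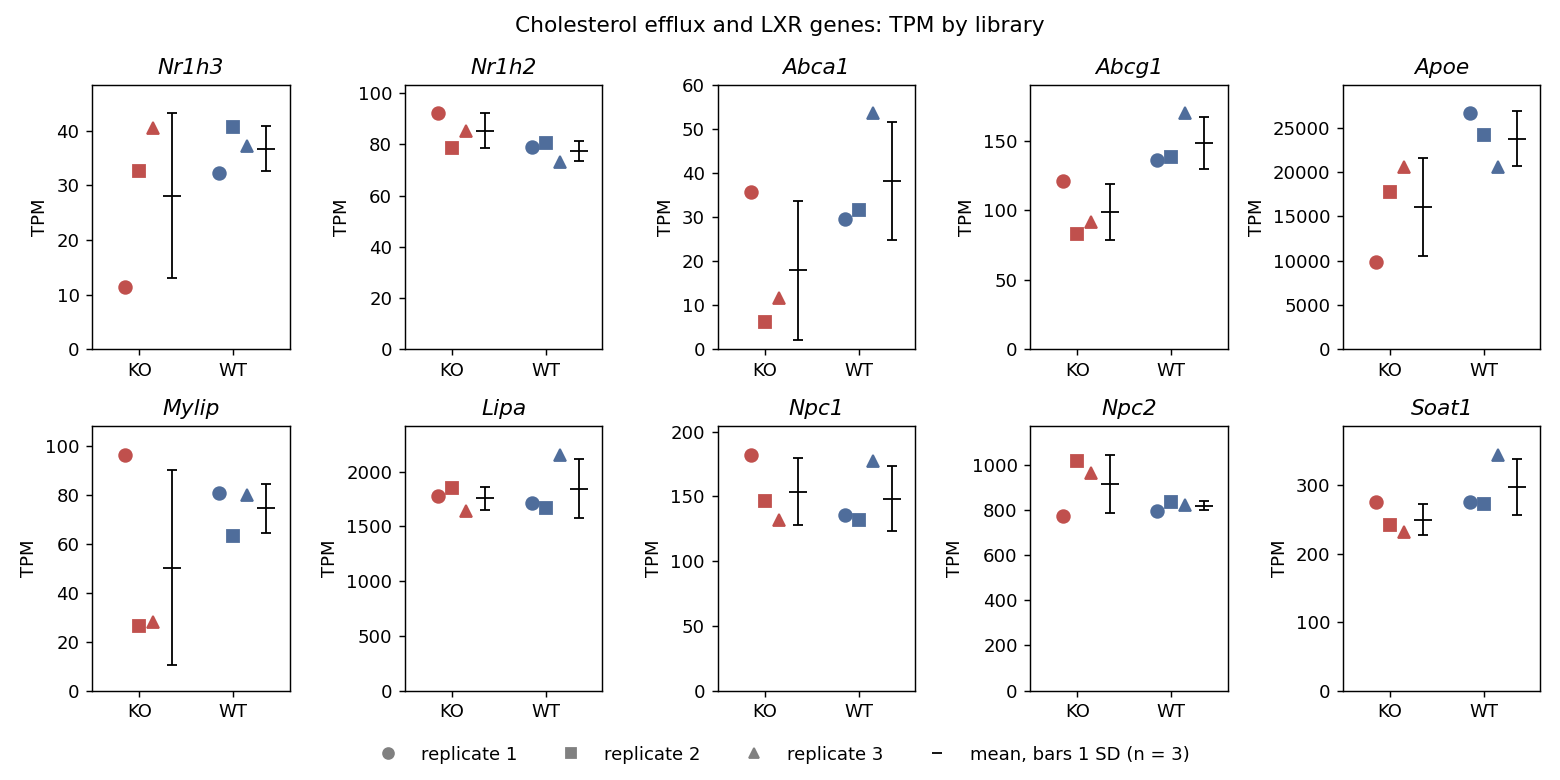
TPM of the 10 genes (y axis, linear, from 0) in the 3 KO libraries (left, red) and the 3 WT libraries (right, blue); symbols mark replicates, and the bar beside them the mean and 1 SD. KO replicate 1 (circle) lies far below the other 5 libraries for Nr1h3 (11.3 TPM) and in or above the WT range for Abca1 (35.8 TPM) and Mylip (96.7 TPM), where KO replicates 2 and 3 are low.

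Between the groups, 1 of the 10 genes, Abcg1, fell, and none rose. The test was the edgeR quasi-likelihood test with Benjamini-Hochberg adjustment over all 11424 genes and a threshold of 0.05, which called 3.32% of all genes, 2.26% as higher in KO and 1.06% as lower (258 and 121 genes). Limma on TPM, where the median of all genes sat at 0.12, split its calls 866 higher to 121 lower, and a correction for GC content and length 388 to 334. The median log2 difference, KO minus WT, was -0.45 over the 10 genes and -0.0059 over all genes tested. In CPM, 4 of the 10 had every KO library below every WT library (Abca1, Abcg1, Apoe and Soat1), which was so for 12.6% of all genes. None had every KO library above, which was so for 18.4%; either way it was 31.0%. In bulk samples fewer cells of a type and less RNA per cell cannot be told apart.

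The receptors did not pass the test. Nr1h3 (LXRα; gene ID 22259, chromosome 2, 91184061 to 91202829, coordinates of GRCm38 here and below) measured 9.63, 31.3 and 38.4 CPM in the KO libraries (replicates 1, 2 and 3), against 34.4, 42 and 35.9 CPM in the WT libraries (replicates 1, 2 and 3). KO replicate 1 was low and the other 5 libraries lay together. The log2 difference was -0.50 (SE 0.484, edgeR adjusted p = 0.537), and -0.089 (95% interval -0.395 to 0.217, adjusted p = 0.612) without KO replicate 1. The counts behind the low value were 175, against 591 to 736 in the other libraries. The table's range of Nr1h3 overlaps that of Acp2, a lysosomal phosphatase gene, which held 213.3, 313.3 and 301.7 CPM in the KO libraries, against 255.1 to 294 CPM in the WT libraries. How shared reads were counted is not stated.

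Nr1h2 (LXRβ; gene ID 22260, chromosome 7, 44549616 to 44553968) showed no shift beyond its spread. It was at 93.6, 87.3 and 93.3 CPM in the KO libraries and at 97.6, 96.9 and 82.6 CPM in the WT libraries. The groups overlapped, and the difference was -0.015 in log2, with a 95% interval of -0.254 to 0.223 (edgeR adjusted p = 0.931), a size whose sign turned with scaling (0.037 with upper-quartile factors, 0.14 with limma on TPM). Without KO replicate 1 it was -0.019 (adjusted p = 0.893). As a share of the TPM of Nr1h2, Nr1h3 stood at 0.123, 0.413 and 0.474 in the KO libraries, against 0.41, 0.503 and 0.508 in the WT libraries. By TPM, Nr1h3 was thus the receptor gene with fewer transcripts in every library, most so in KO replicate 1.

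Abcg1, the transporter that moves cholesterol to high-density lipoprotein particles, was lower in every KO library (gene ID 11307, chromosome 17, 31057694 to 31117984). It measured 384, 288.8 and 314 CPM in the KO libraries (replicates 1, 2 and 3), against 526.9, 519.6 and 597.9 CPM in the WT libraries (replicates 1, 2 and 3). The groups did not overlap, and the highest KO value was that of replicate 1. Its mean was 0.6 of the WT mean (log2 -0.74, SE 0.134, edgeR adjusted p = 0.0471; 95% interval of the log2 value -1.06 to -0.41). Without KO replicate 1 it was -0.85 (edgeR adjusted p = 0.000273), in a fit that called 49.6% of all genes. The call was lost when any other single library was left out, in fits that called 0.0427% to 0.13% of all genes. The log2 difference stood at -0.67 without KO replicate 2 and -0.74 without KO replicate 3 (edgeR adjusted p = 0.134 and 0.172). Leaving out WT replicate 1, WT replicate 2 or WT replicate 3 gave -0.79, -0.80 and -0.68 (adjusted p = 0.172, 0.234 and 0.154). With limma on TPM the adjusted p was 0.0729, and by edgeR among genes averaging 10 CPM or more 0.0545. DESeq2, which called 8.7% of all genes, gave 0.000131 on the same counts. The authors' deposited table holds a log2 value of -0.74, KO over WT by its sign, at a DESeq2 q-value of 0.000164.

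Abca1, the transporter that loads cholesterol and phospholipid onto free apolipoproteins, had the widest spread among the KO libraries relative to its mean (gene ID 11303, chromosome 4, 53030789 to 53159988). It measured 203.5, 39.4 and 72 CPM in the KO libraries (replicates 1, 2 and 3), against 205.5, 212.7 and 338.9 CPM in the WT libraries (replicates 1, 2 and 3). KO replicate 1 lay just under the lowest WT library, while KO replicates 2 and 3 together averaged 0.221 of the WT mean. In TPM KO replicate 1 (35.8) lay inside the WT range (29.6 to 53.7). The groups differed by -1.27 in log2 (edgeR SE 0.622, adjusted p = 0.285), with a 95% interval of -2.8 to 0.271. Without KO replicate 1 it was -2.16 (SE 0.341, adjusted p = 0.00285), in a fit that called 49.6% of 11677 genes. The ratio of Abca1 to Abcg1 in TPM was 0.295, 0.0759 and 0.128 in the KO libraries and 0.217, 0.228 and 0.316 in the WT libraries. The listed range of Abca1 overlaps those of 6 other, wider entries, and whether reads were shared was not tested.

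Apoe, which encodes the secreted apolipoprotein E that accepts exported cholesterol, was lower in every KO library but did not pass the test (gene ID 11816, chromosome 7, 19696244 to 19701310). It measured 5703, 11254 and 12859 CPM in the KO libraries (replicates 1, 2 and 3), against 18858, 16621 and 13335 CPM in the WT libraries (replicates 1, 2 and 3). KO replicate 1 was the lowest, and KO replicate 3 lay just under WT replicate 3. The log2 difference was -0.71 (SE 0.326, edgeR adjusted p = 0.26), and -0.42 (SE 0.148, adjusted p = 0.0474) without KO replicate 1. That second fit called 49.6% of all genes. KO replicate 1, the highest KO library for Abca1, was thus the lowest for Apoe.

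Mylip, which encodes the ubiquitin ligase IDOL that limits lipoprotein uptake, had the pattern of Abca1 (gene ID 218203, chromosome 13, 45389742 to 45412019). It measured 149.8, 45.1 and 47.2 CPM in the KO libraries (replicates 1, 2 and 3), against 152.9, 116.2 and 138.3 CPM in the WT libraries (replicates 1, 2 and 3). KO replicate 1 lay inside the WT range and KO replicates 2 and 3 well below it, at 0.34 of the WT mean. The log2 difference was -0.75 (SE 0.506, edgeR adjusted p = 0.401), and -1.54 (SE 0.127, adjusted p = 7.54e-05) without KO replicate 1. That second fit called 49.6% of all genes.

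None of the lysosomal genes passed the test. Lipa, the acid lipase that frees cholesterol from its ester (gene ID 16889, chromosome 19, 34492316 to 34527474), was at 2745, 3140 and 2754 CPM in the KO libraries and at 3227, 3051 and 3710 CPM in the WT libraries. The groups overlapped (log2 -0.21, 95% interval -0.5 to 0.0808, edgeR adjusted p = 0.334; -0.16 and 0.252 without KO replicate 1). Npc1, the membrane protein that hands cholesterol out of the lysosome (gene ID 18145, chromosome 18, 12189694 to 12236506), was at 511.4, 451.5 and 401.6 CPM in the KO libraries and at 465.7, 440 and 554 CPM in the WT libraries. Its values were interleaved (log2 -0.10, 95% interval -0.428 to 0.234, adjusted p = 0.665; -0.18 and 0.235 without KO replicate 1). With the GC and length correction Npc1 stood at -0.27 (edgeR adjusted p = 0.212). With KO replicate 1 also left out Npc1 was called, at -0.43 (edgeR adjusted p = 0.00141), in a fit that called 53.8% of all genes. As lower it called 30.8%. The range of Npc1 overlaps that of Rmc1, which was at 27.3 to 38.6 CPM in KO and 37.3 to 41.9 CPM in WT libraries.

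Npc2, the soluble lysosomal protein that passes cholesterol to NPC1 (gene ID 67963, chromosome 12, 84754559 to 84773112), split the KO group around the WT group. The KO libraries held 1317 CPM (replicate 1), 1908 CPM (replicate 2) and 1783 CPM (replicate 3), against 1664, 1692 and 1567 CPM in the WT libraries. Replicate 1 lay under the WT range and the other KO libraries over it. The log2 difference was 0.025 (95% interval -0.353 to 0.403, edgeR adjusted p = 0.929), and 0.18 (-0.00415 to 0.373, adjusted p = 0.0954) without KO replicate 1. Without KO replicate 2, KO replicate 3 or WT replicate 3 the sign turned. For these 3 genes a p above the threshold does not show equal levels.

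Soat1, the enzyme that esterifies cholesterol for storage in droplets (gene ID 20652, chromosome 1, 156428108 to 156474328), was lower in every KO library. It was at 706.3, 684 and 645 CPM in the KO libraries and at 862.9, 828.5 and 986.1 CPM in the WT libraries. The groups did not overlap in CPM, but in TPM KO replicate 1 (274.9) lay just above WT replicates 1 and 2 (274.8 and 271.8). The fold was 0.76 (log2 -0.40, SE 0.101, edgeR adjusted p = 0.0931). DESeq2 called it (adjusted p = 0.00994), as does the authors' deposited table (q-value 0.0124). So did edgeR without KO replicate 1 (log2 -0.41, adjusted p = 0.00864), in a fit that called 49.6% of all genes. Its longest coding transcript in GENCODE has 8371 bases and 44.1% GC, and with a correction for GC content and length the log2 difference was -0.083 (adjusted p = 0.808), or 0.063 with KO replicate 1 also left out.

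**Figure D2:**
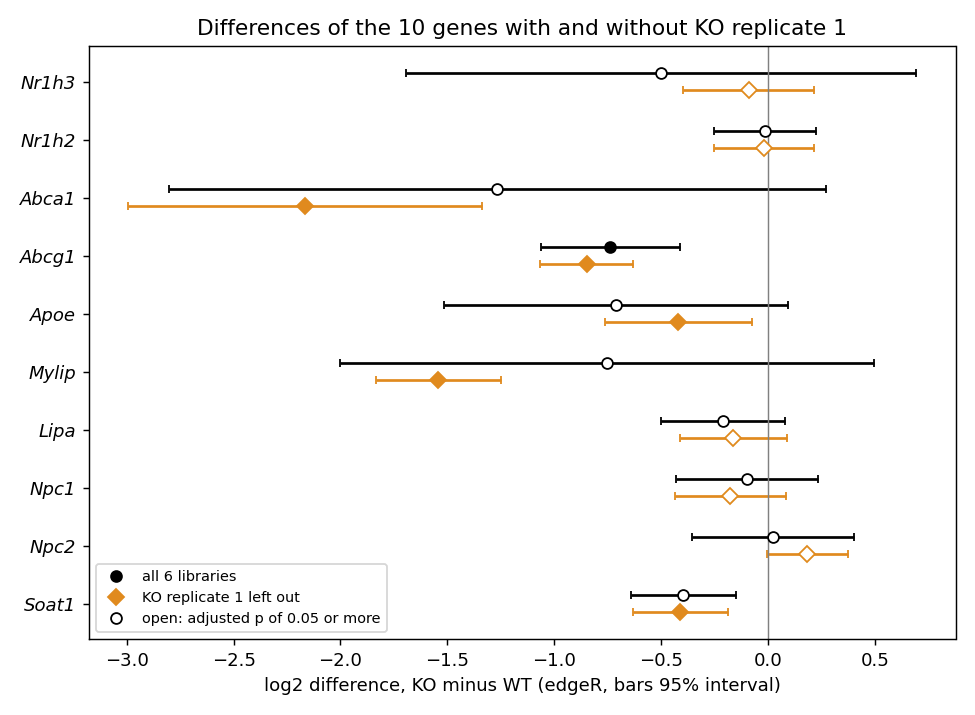
Log2 difference of each gene, KO minus WT (x axis), by edgeR with its 95% interval, for all 6 libraries (black circles) and with KO replicate 1 left out (orange diamonds); filled symbols have an adjusted p under 0.05. Abcg1 (-0.74) is the filled circle, and Abcg1, Abca1, Mylip, Apoe and Soat1 are filled diamonds.

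Without KO replicate 1, 5 of the 10 genes were called, all lower (Abca1, Abcg1, Mylip, Apoe and Soat1), in a fit that called 26.0% of all genes as lower and 23.6% as higher. The order of the libraries differed between the genes. In Abca1, Abcg1, Mylip and Soat1, KO replicates 2 and 3 were below KO replicate 1 and all WT libraries, which was so for 30.0% of all genes tested. For Soat1, though, KO replicates 1 and 2 were close (706.3 and 684 CPM). In Abca1, Abcg1 and Soat1, KO replicate 1 also lay below all WT libraries, which it did not in Mylip. In Nr1h3, Npc2, Lipa and Apoe, KO replicate 1 was the lowest of the 6, which was so for 20.6%, though for Lipa KO replicates 1 and 3 were nearly equal. Nr1h2 and Npc1 had neither order.

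**Figure D3:**
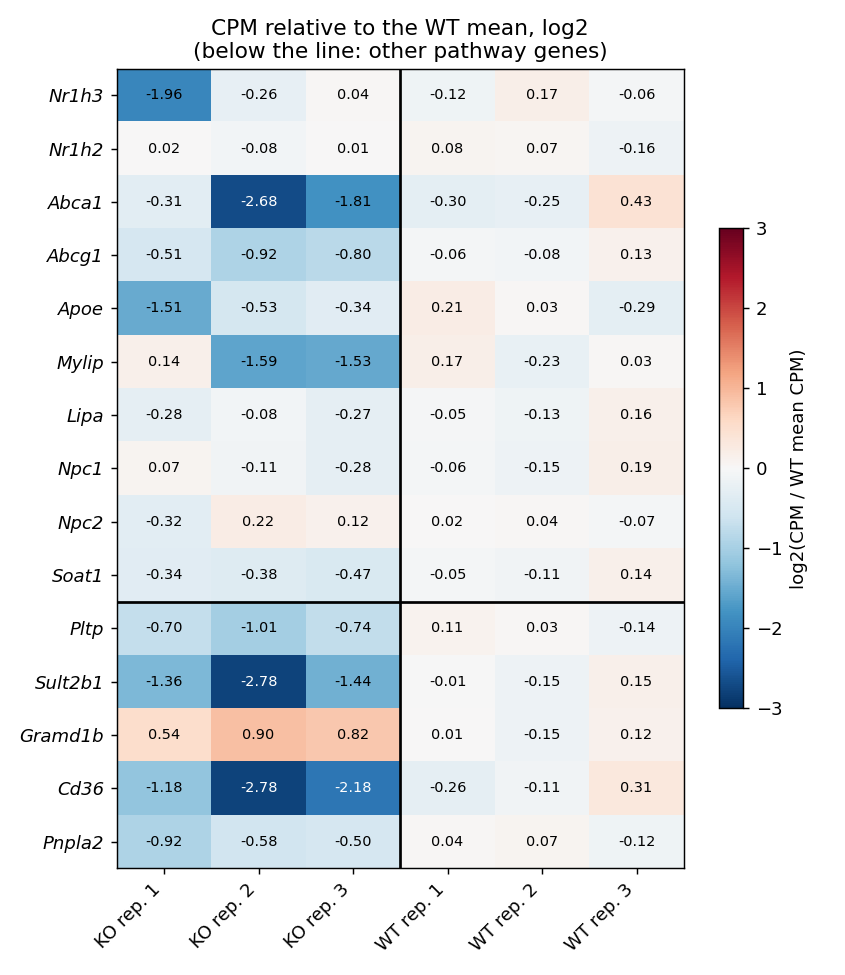
CPM of each gene in each library relative to the WT mean, on a log2 scale (colour and number; blue lower, red higher), with KO libraries left of WT libraries; the 5 genes under the line come from the wider pathway. Abca1 and Mylip are low in KO replicates 2 and 3 (-2.68 and -1.81, -1.59 and -1.53), Nr1h3 and Apoe in KO replicate 1 (-1.96 and -1.51). Abcg1, Soat1, Pltp, Sult2b1, Cd36 and Pnpla2 are low in all 3 KO libraries, and Gramd1b is high in all 3.

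Over the 6 libraries, and among the other genes averaging 10 CPM or more, the patterns most like that of Abca1 were those of Hspa13, Atp13a3 and Ints6 (Pearson's r of log2 CPM 0.999, 0.998 and 0.998). Atp13a3, for example, was at 147.2, 34.1 and 53 CPM in the KO libraries and at 138.2, 144.1 and 221.6 CPM in the WT libraries. Apoe was most like Mif4gd, Acaa2 and Rnpep (0.997, 0.994 and 0.993), and Nr1h3 most like Ctsl, Adcy3 and Cotl1 (0.995, 0.993 and 0.993). Ctsl, which encodes cathepsin L, was at 482.1, 1196 and 1350 CPM in the KO libraries and at 1221 to 1361 CPM in the WT libraries. These are the best of 8230 genes over 6 points that share the stand-apart library, and they describe the libraries only.

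Of the wider pathway, 64 of 73 listed genes had enough counts to test, and 1 rose and 1 fell, beside 3.32% of all genes (3.11% by limma-voom and 8.64% by limma on TPM). Pltp, an LXR target that encodes phospholipid transfer protein, was at 318.5, 257.7 and 310.3 CPM in the KO libraries and at 558.3, 527.8 and 469.6 CPM in the WT libraries. The groups did not overlap, and Pltp fell to 0.57 of its WT level (log2 -0.81, SE 0.121, edgeR adjusted p = 0.0326). Its range overlaps that of Ctsa, which was at 1189 to 1314 CPM in KO and 1325 to 1484 CPM in WT libraries. Gramd1b, which encodes the ER protein Aster-B that brings cholesterol in from the plasma membrane, was at 123.1, 158.9 and 149.8 CPM in the KO libraries and at 85.7, 76.7 and 92.3 CPM in the WT libraries. It rose 1.69-fold with no overlap (log2 0.76, SE 0.13, adjusted p = 0.0422). The fit without KO replicate 1 called 49.6% of all genes. Both calls held in it (edgeR adjusted p = 0.00065 for Pltp and 0.000257 for Gramd1b). Both were lost without KO replicate 2, KO replicate 3 or WT replicate 1, 2 or 3, in fits that called 0.0427% to 0.13% of all genes. The edgeR adjusted p was then 0.12, 0.133, 0.16, 0.23 and 0.108 for Pltp and 0.141, 0.166, 0.173, 0.239 and 0.132 for Gramd1b.

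By group, 1 of 13 tested LXR targets outside the 10 genes fell and none rose, with a median log2 difference of -0.38. Of the 13, 6 had an unadjusted p under 0.05 by edgeR, 2 higher and 4 lower in KO. DESeq2 called 3, all lower, and limma-voom and limma on TPM each called 1, Pltp. Over all 11424 genes tested, 2596 had an unadjusted p under 0.05 by edgeR, beside which such counts here and in the next paragraph stand. None of 14 LXR partners and cofactors was called (median 0.14), and 3 had an unadjusted p under 0.05. DESeq2 called 2, limma-voom none and limma on TPM 2. None of 5 oxysterol enzymes was called (median -0.20; 3 at an unadjusted p under 0.05, none called by limma-voom). DESeq2 and limma on TPM each called 1, Ch25h, which makes the oxysterol 25-hydroxycholesterol. Ch25h had 10, 22 and 24 counts in the KO libraries, against 3, 3 and 0 in the WT libraries, with no overlap (edgeR adjusted p = 0.0891). Among these enzymes the smallest edgeR p was that of Sult2b1, a sterol sulfotransferase, at 0.213 ± 0.0957 CPM in KO, against 0.705 ± 0.073 CPM in WT libraries (adjusted p = 0.0888), a level of few counts.

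In sterol transfer and lysosomal export, 1 of 17 tested genes rose, Gramd1b, and none fell (median 0.041). Of the 17, 5 had an unadjusted p under 0.05 by edgeR, 3 higher and 2 lower in KO. DESeq2 called 2 higher and 1 lower, limma-voom 1 higher and limma on TPM 4 higher. None of 8 lipoprotein uptake genes was called (median 0.10; 2 at an unadjusted p under 0.05, 1 called by DESeq2, none by limma-voom or by limma on TPM). Cd36, the scavenger receptor for oxidised lipoproteins, had the smallest p, at 619.1, 204.2 and 310.9 CPM in KO and 1175, 1307 and 1739 CPM in WT libraries. The groups did not overlap (log2 -1.90, SE 0.436, edgeR adjusted p = 0.0788; 0.000181 by DESeq2). The longest coding transcript of Cd36 has 38.4% GC. Corrected for GC content and length, Cd36 differed by -1.19 in log2 (called, edgeR adjusted p = 0.0073), in a fit that called 6.45% of all genes. The difference was -1.15 with KO replicate 1 also left out. None of 7 genes of ester turnover and other efflux was called (median 0.24; 3 at an unadjusted p under 0.05, 2 called by DESeq2, Abca2 and Pnpla2, none by limma-voom and 1, Pnpla2, by limma on TPM). Pnpla2, the droplet triglyceride lipase, had the smallest p, at 102.3, 130.2 and 137.4 CPM in KO and 199.7, 203.9 and 178.4 CPM in WT libraries (log2 -0.65, edgeR adjusted p = 0.0602; 0.0114 with the GC and length correction). Without KO replicate 1, 20 of the 64 genes were called higher and 20 lower, in a fit that called 49.6% of all genes.

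**Figure D4:**
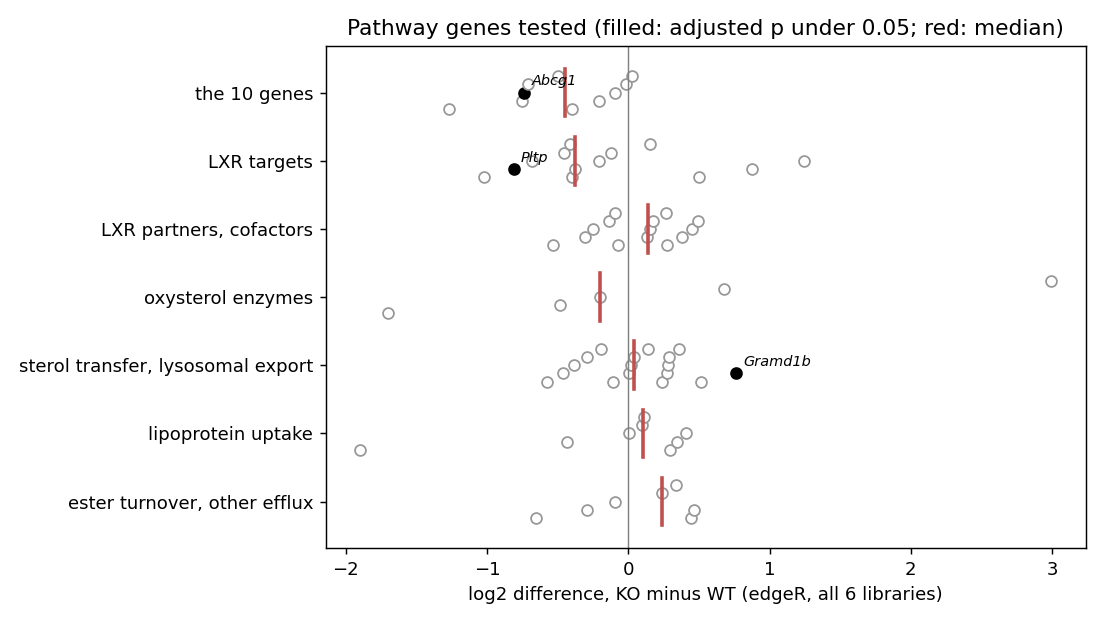
Log2 difference, KO minus WT, by edgeR over all 6 libraries (x axis) of every tested gene of the 10 and of the 6 wider lists; filled points have an adjusted p under 0.05 and red bars are medians. Abcg1, Pltp and Gramd1b are filled, and the medians run from -0.45 for the 10 genes to 0.24 for ester turnover and other efflux.

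The sorted cells carried macrophage transcripts in every library: the 8 macrophage markers summed to 19990 to 44695 CPM in KO and 35533 to 39851 CPM in WT libraries, lowest in KO replicate 1, and 1 of the 8, Csf1r, rose. Most of each sum was Lyz2, the lysozyme gene, at 13171, 36709 and 35108 CPM in the KO libraries, against 34035, 31525 and 29743 CPM in the WT libraries. The other 7 markers summed to 6819, 7987 and 8010 CPM in the KO libraries, against 5817, 5689 and 5790 CPM in the WT libraries. Without Lyz2 every KO library, replicate 1 too, thus lay above the WT libraries, but the 7 markers went different ways. Csf1r (2900, 2609 and 2573 CPM in KO, 1562, 1560 and 1567 CPM in WT libraries), Adgre1 and Cd14 were higher in every KO library. Cd68 and Mrc1 were lower in every KO library, and Itgam and Fcgr1 overlapped between the groups. Markers of B cells, T and NK cells, neutrophils, eosinophils, mast cells, dendritic cells, mesothelial and endothelial cells each summed to under 10 CPM in every library. None was called, but few were tested, and no dendritic or mesothelial marker had enough counts for that; the mesothelial genes were at 0 in all WT libraries. Fibroblast markers summed to 2.15 to 33.4 CPM in KO, lowest in KO replicate 1, and 5.17 to 8.14 CPM in WT libraries. Platelet markers summed to 16.1 to 54.1 CPM in KO and 59.7 to 103.4 CPM in WT libraries, with 3 of 5 lower. Not all listed markers were in the deposited table. It held 2 of 5 for mast cells and for mesothelial cells, and 4 of 5 for T and NK cells, neutrophils and eosinophils. None of those it held was at 0 in all 6 libraries, but 15450 of its 15469 genes had counts, so this says little. The part of these cells in the values above was not tested.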

How the data were processed

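The 6 libraries were grouped by title, 3 KO and 3 WT. Per the submitters' processing notes, fastp 0.18.0 cleaned the reads and the build was GRCm39. The table's coordinates are nevertheless those of GRCm38: of 15426 genes matched by ID to RefSeq GRCm38.p6, 13131 had the same start. Aligner, counter, strand setting and annotation: not given in the sources used here. Deposited by the authors were estimated counts per gene (4.82% to 5.49% of values not whole), rounded here before testing, and TPM values, used here for levels. Per the file headers, DESeq2 gave the deposited log2 fold changes, p-values and q-values. Libraries held 17280855 to 18632623 counts.

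Genes were filtered with filterByExpr (minimum count 10), scaled with TMM factors and tested in R 4.3.3 with edgeR 4.0.16 (robust quasi-likelihood F test, group as the only term). A gene was called at a Benjamini-Hochberg adjusted p under 0.05 over all genes tested. The fit was also run on simulated counts with the same spread for every gene and no library set apart. These data differ in that, so the run does not show how the fit behaves on them. Other settings were tried: size factors by RLE or upper quartile, DESeq2 1.42.0, limma 3.58.1 by voom or on log2(TPM + 1), which understates changes of low genes, no count filter or only genes averaging 10 CPM or more, a block by replicate number, single libraries left out, and a threshold of 0.01. A GC and length correction (mgcv 1.9.3, GENCODE transcripts) was chosen after seeing the data.

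The members and lists were chosen with earlier results of these data known. All 10 members are named; from each wider list the called genes are named, or the one with the smallest p, except for a result that is not reported here. Lpl, Fasn, Mertk, Apoc2, Srebf1, Ch25h, Abca2, Csf1r, Lyz2 and the overlapping genes were chosen after their values were seen. All pairs of libraries within a group differed by more than sampling noise (lowest chi-square over its degrees of freedom 6.55).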

Additional observations from a re-analysis of the deposited data

How the results depend on the processing

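Of 255 recomputed log2 differences of 16 genes, the 10 and 6 of the wider pathway, 199 kept direction and side of the threshold, 24 gained the call, 20 lost it and 12 turned sign. The sign turned for Nr1h2 with upper-quartile factors (0.037), limma on log2(TPM + 1) (0.14), a mean of at least 10 CPM (0.0073) and without WT replicate 1 (8.53e-05), and for Npc1 with limma on TPM (0.051) and without WT replicate 3 (0.000283; -0.19 to 0.000283 over single libraries left out). It turned for Npc2 without KO replicate 2, KO replicate 3 and WT replicate 3 (-0.10, -0.061 and -0.014; -0.10 to 0.18 over single libraries left out), with the GC and length correction (-0.17) and with that correction and KO replicate 1 left out (-0.12), and for Soat1 in the last setting (0.063). edgeR called none of these 4 genes over all 6 libraries. Limma on TPM shifted the median of all genes to 0.12.

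The main comparison called 379 genes, 1 of the 10 and 2 of the wider pathway. DESeq2 called 1344, 2 and 12. Limma on TPM called 987, 0 and 9, with 1 of the 10 at an unadjusted p under 0.05, beside 3448 of all genes. A mean of at least 10 CPM gave 231 and 0, with 2 of the 10 at an unadjusted p under 0.05, beside 1900 of all genes. An adjusted p under 0.01 gave 15, 0 and 0. The GC and length correction gave 722 and, of the wider pathway, 7; with KO replicate 1 left out as well it gave 6148, 5 and 41. Leaving out single libraries gave 5 to 5793 genes, 0 to 5 of the 10 and 0 to 40 of the wider pathway, the highest each time without KO replicate 1. With 2 libraries left in a group, edgeR called 0 of the 10 in the other 5 such fits, with 2 or 3 at an unadjusted p under 0.05. Those 5 fits called 5 to 15 of all genes, with 1535 to 2070 at an unadjusted p under 0.05.

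With the replicate number as a block edgeR called 0 genes, 0 of the 10 and 0 of the wider pathway, with 1976, 2 and 20 at an unadjusted p under 0.05. No source says that the numbers pair the samples. Deviations of same-numbered libraries correlated at -0.16, 0.25 and -0.27, and 2 of 6 libraries correlated best with their own number. With 3 libraries per group and KO replicate 1 apart, these values cannot decide whether the samples were paired. GC content and length took up 15.9% of the variance of the difference over all 6 libraries and 21.5% without KO replicate 1. Depth limits Sult2b1, which had under 1 CPM in every library.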

Other observations

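Lpl, the lipoprotein lipase that releases fatty acids from lipoproteins and a known LXR target, was at 3332, 1971 and 2546 CPM in KO and at 4911, 5002 and 6057 CPM in WT libraries. The groups did not overlap (log2 -1.02, SE 0.214, edgeR adjusted p = 0.0613; 0.000349 without KO replicate 1). Fasn, the fatty acid synthase and also an LXR target, lay the other way, at 107.8, 145.8 and 151.7 CPM in KO and at 84.3, 92.6 and 109.6 CPM in WT libraries (log2 0.50, adjusted p = 0.155; 0.00206 without KO replicate 1). Mertk, a receptor for dead cells, was at 81.9, 125.1 and 130.8 CPM in KO and at 164.9, 161.5 and 216.6 CPM in WT libraries (log2 -0.68, adjusted p = 0.142; 0.0171 without KO replicate 1). For Mertk the groups did not overlap either, while for Fasn KO replicate 1 lay inside the WT range. Of the list of LXR targets, Apoc2 and Srebf1 were higher in every KO library. Apoc2 was at 56.9, 28.4 and 31.8 CPM in KO and at 23.3, 21.5 and 19.2 CPM in WT libraries. Srebf1 was at 73.8, 73.4 and 81.8 CPM in KO and at 69.6, 72.8 and 63.1 CPM in WT libraries. Of the 13 tested targets, 9 had a log2 difference below 0. Without KO replicate 1, 3 were called higher and 4 lower, in a fit that called 49.6% of all genes. The genes named here were chosen after their values were seen.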
